A study of Mus musculus with 2 samples.

Results

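The genes described are the named small nucleolar RNA (snoRNA) and small Cajal body RNA (scaRNA) genes of the mouse, chosen as every gene whose symbol begins with Snord, Snora or Scarna followed by a digit. The rule found 150 gene entries under 147 symbols among 55536 annotated genes: 99 Snord, 42 Snora and 9 Scarna entries. They were measured in 2 total RNA sequencing libraries of hippocampus from male mice, per the labels, of strain B6CASTF1/J at 10 days of age, with no treatment, knockout or transgene named. The 2 libraries are biological replicates of 1 group, each from 300 ng of RNA, and each label gives 3 males, so no comparison between conditions could be made. All 150 entries had a row in both the gene table and the FASTQ-based transcript table, and all matched the annotation by gene ID.

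SnoRNAs guide chemical changes of ribosomal RNA. Box C/D snoRNAs (Snord) direct methylation of the ribose with the methyltransferase fibrillarin, and box H/ACA snoRNAs (Snora) direct the change of uridine to pseudouridine with dyskerin. ScaRNAs (Scarna) do the same work on the small nuclear RNAs of the spliceosome and gather in the Cajal body, a structure of the nucleus that is prominent in neurons. Most of these genes in mammals lie in introns of a host gene and are cut out of the spliced intron. In the brain, the imprinted Snord115 and Snord116 clusters are known for their expression in neurons and for the loss of the human counterpart in Prader-Willi syndrome.

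Sequences show the boxes that go with the class names and how much the members differ in length. They are printed 5′ to 3′ on the transcribed strand from the GENCODE M21 transcripts, with the coordinates of build mm10. The capitals mark the C box as TGATGA and the D box as CTGA in Snord entries, the ACA near the 3′ end in Snora entries, and the motif TGAG, a form of the Cajal body box, in Scarna entries. The first pair of C/D genes is shorter than 100 bases and was listed at 0 in both libraries. Snord47 lies on the plus strand at chr1:161038082-161038158, inside an exon of a transcript of Gas5, a noncoding host gene. Snord116l17 lies on the minus strand at chr7:59861731-59861824, in an intron of Snhg14.
Snord47: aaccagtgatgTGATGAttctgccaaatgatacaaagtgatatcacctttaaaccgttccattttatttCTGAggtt
Snord116l17: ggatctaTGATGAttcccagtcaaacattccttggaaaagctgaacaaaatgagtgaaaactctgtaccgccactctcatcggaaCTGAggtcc
The next 3 are the C/D genes with the most counts among those with an intact pair of boxes. Snord15b (minus strand, chr7:99479563-99479707) and Snord15a (minus strand, chr7:99482785-99482932) share the host gene Rps3, and Snord17 (minus strand, chr2:144265979-144266216) is the longest C/D member.
Snord15b: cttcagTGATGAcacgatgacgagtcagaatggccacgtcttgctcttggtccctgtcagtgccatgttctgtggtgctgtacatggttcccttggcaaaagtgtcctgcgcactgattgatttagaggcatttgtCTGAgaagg
Snord15a: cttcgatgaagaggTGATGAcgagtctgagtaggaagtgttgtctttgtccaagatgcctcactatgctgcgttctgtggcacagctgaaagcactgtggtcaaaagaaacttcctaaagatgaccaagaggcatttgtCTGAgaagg
Snord17: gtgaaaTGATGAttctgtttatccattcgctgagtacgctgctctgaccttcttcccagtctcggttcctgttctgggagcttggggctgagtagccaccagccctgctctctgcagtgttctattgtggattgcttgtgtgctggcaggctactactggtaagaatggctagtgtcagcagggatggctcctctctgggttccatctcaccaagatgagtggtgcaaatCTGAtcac
Snora73a (minus strand, chr4:132352775-132352979) and Snora73b (minus strand, chr4:132352322-132352526) are shown because they are close copies that differed at 7 of 205 aligned positions.
Snora73a: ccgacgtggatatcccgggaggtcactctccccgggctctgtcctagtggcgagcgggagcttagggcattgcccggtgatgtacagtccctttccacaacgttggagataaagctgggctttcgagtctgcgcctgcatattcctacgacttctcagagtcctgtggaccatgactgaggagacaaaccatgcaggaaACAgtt
Snora73b: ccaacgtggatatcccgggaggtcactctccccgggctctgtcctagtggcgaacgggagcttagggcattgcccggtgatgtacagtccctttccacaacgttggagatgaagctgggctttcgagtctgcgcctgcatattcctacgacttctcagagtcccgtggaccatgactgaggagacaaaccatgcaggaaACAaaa
For the Cajal body class, Scarna13 (minus strand, chr12:105031075-105031349) and Scarna3a (plus strand, chr1:159340283-159340422) are whole. Scarna2 (minus strand, chr3:108554338-108554751) is the longest member and the one with the most counts, and its first 300 bases are given, which hold no TGAG.
Scarna13: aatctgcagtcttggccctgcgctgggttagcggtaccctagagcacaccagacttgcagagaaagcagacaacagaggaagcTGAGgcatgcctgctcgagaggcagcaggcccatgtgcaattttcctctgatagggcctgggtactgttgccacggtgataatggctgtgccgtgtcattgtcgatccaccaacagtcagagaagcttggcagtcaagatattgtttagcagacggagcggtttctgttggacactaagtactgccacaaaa
Scarna3a: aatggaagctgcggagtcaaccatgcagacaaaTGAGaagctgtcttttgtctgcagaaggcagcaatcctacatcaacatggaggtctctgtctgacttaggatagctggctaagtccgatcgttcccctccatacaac
Scarna2: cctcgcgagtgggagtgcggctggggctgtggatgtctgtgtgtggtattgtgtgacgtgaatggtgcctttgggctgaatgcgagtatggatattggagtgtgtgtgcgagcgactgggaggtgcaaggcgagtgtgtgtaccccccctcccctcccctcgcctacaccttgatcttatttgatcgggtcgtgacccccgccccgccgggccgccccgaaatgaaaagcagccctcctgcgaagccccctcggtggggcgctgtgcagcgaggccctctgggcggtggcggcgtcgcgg

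The boxes followed the class names. TGATGA lay within the first 20 bases of 70 of 99 Snord transcripts and of 2.27% of the 20492 annotated transcripts within the members' range of lengths. CTGA lay within the last 15 bases of 92 Snord transcripts, against 9.50% of that background, and both boxes were found in 68, against 1.60%. An ACA exactly 3 bases before the 3′ end was found in 35 of 42 Snora transcripts (83.3%), in 2 of 9 Scarna and in 0 Snord transcripts, against 3.11% of the background. Both C/D boxes were also found in 4 of 9 Scarna transcripts, among them Scarna10 and Scarna6. TGAG was found in 8 of 9 Scarna transcripts, a motif so short that 69.7% of the background holds it. Motifs were searched on the transcribed strand, and a match describes the letters only.

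The classes differ in length. Snord members ran from 64 bases (Snord37) to 238 (Snord17) with a median of 84, and 87 of 99 were under 100 bases. Snora members ran from 121 bases (Snora26) to 205 (Snora73a and Snora73b) with a median of 132.5, and none was under 100. Scarna members ran from 70 bases (Scarna9) to 414 (Scarna2) with a median of 140, and 2 were under 100.

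No member under 100 bases had a count. The shortest member with one was Snord23 (109 bases) among Snord, Snora26 (121) among Snora, where no entry is under 100 bases, and Scarna3b (139) among Scarna. In the gene table, which was made from alignments, the 89 members under 100 bases were all listed at 0 in both libraries, as were all 2398 annotated genes under 100 bases. All 28639 transcript rows under 100 bases were at 0 too, a set that overlaps these genes and is not separate support. The effective length, the number of positions at which a read can start within a transcript, was the length minus 99 bases for long transcripts, and 0 for each member under 100 bases. A 0 in those rows therefore sets no upper limit on the RNA. The shortest transcript with a count was 101 bases in replicate 1 and 100 in replicate 2, and 6 of 415 single-transcript genes of 100 to 104 bases had one. No label or file header states how the libraries were selected for fragment size.

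**Figure D1:**
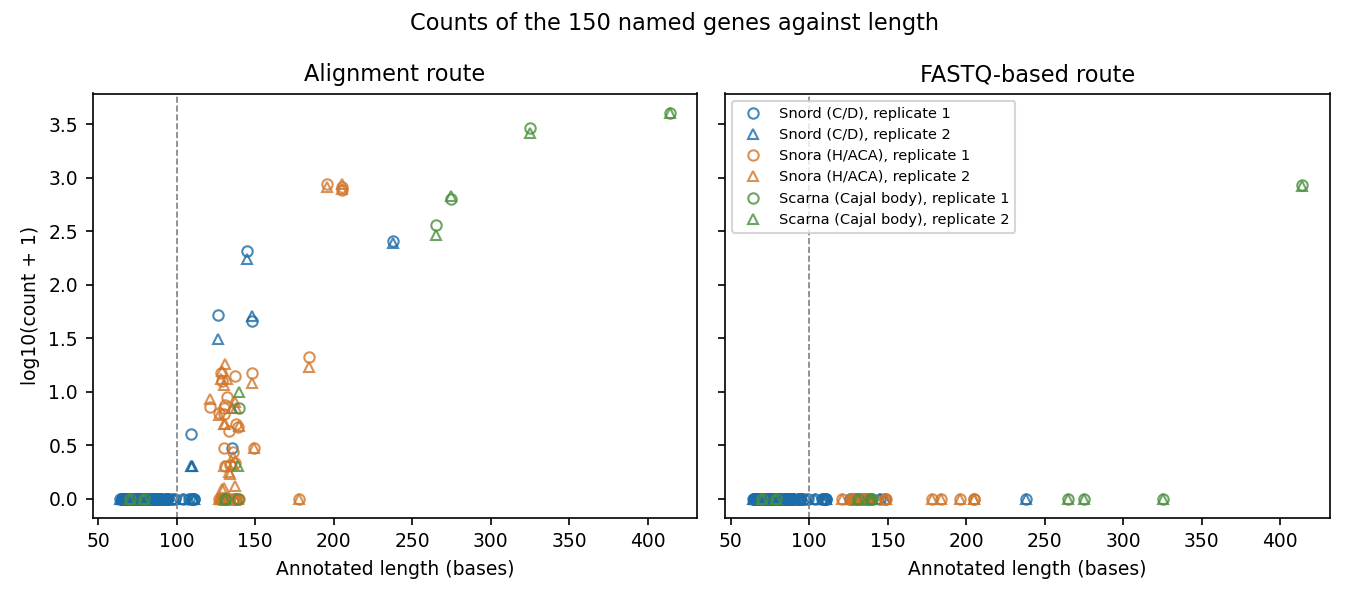
Count of each of the 150 members, as log10(count + 1), against annotated length in bases, by the alignment route on the left and by the FASTQ-based route on the right. Circles are replicate 1 and triangles replicate 2, colours are the classes, and the dashed line is at 100 bases: all members left of it are at 0, and on the right only Scarna2, at 414 bases, is above 0.

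Among the 61 members of 100 bases or more, 41 had a count above 0 in at least 1 library: 8 of 12 Snord, 27 of 42 Snora and 6 of 7 Scarna. An expected count of at least 1 in both libraries was reached by 29 of all 150 members (19.3%), against 43.4% of all annotated genes. By class this was 6 Snord (6.06%), 18 Snora (42.9%) and 5 Scarna (55.6%). These shares include the 89 members under 100 bases, which could hold no count. Over members of 100 bases or more the share was 47.5% (29 of 61). By class it was then 50% for Snord (6 of 12), 42.9% for Snora and 71.4% for Scarna (5 of 7). Within a length band the members, all classes together, can be set against snoRNA and scaRNA genes outside the naming rule. From 100 to 149 bases, 32 of 51 members (62.8%) were above 0, against 106 of 981 snoRNA and scaRNA genes outside the rule (10.8%) and 193 of 2500 other single-transcript genes (7.72%). From 150 to 299 bases it was 7 of 8 members, against 19 of 52 and 436 of 2901. Across the 61 members, length and mean count had a Spearman rho of 0.49, as a description over genes that share both libraries.

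**Figure D2:**
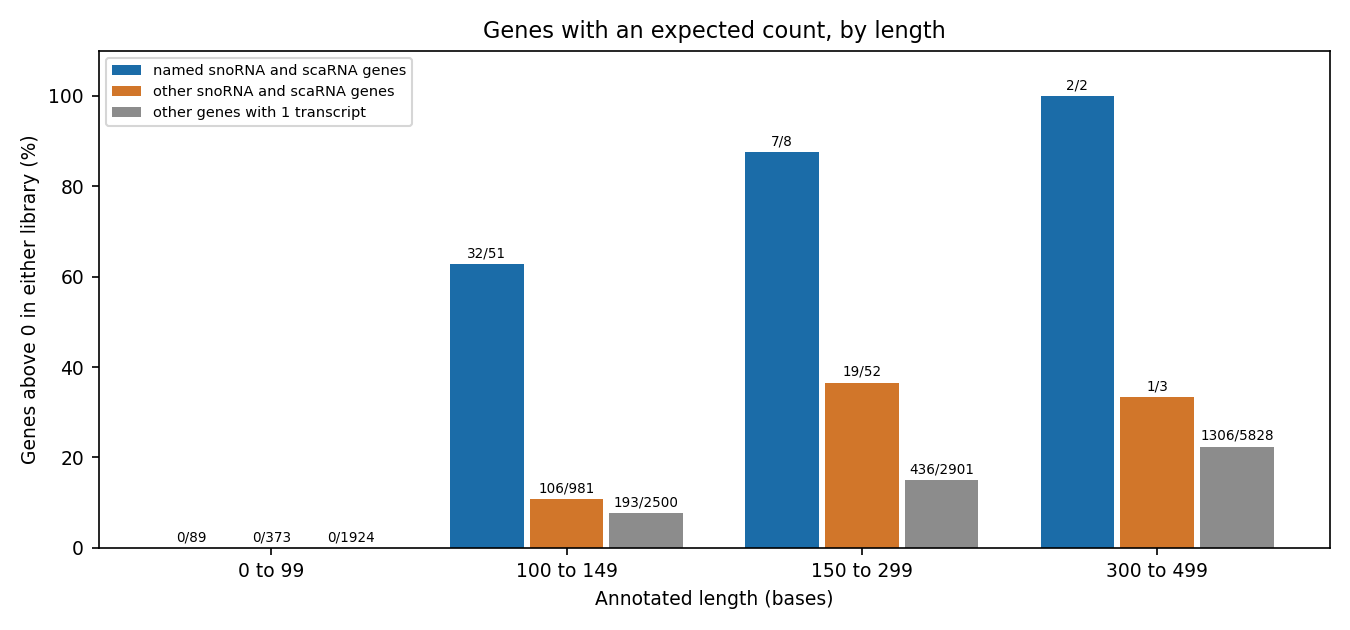
Percent of genes above 0 in either library of the alignment-based gene table, by annotated length in bases, for the named members, for the other annotated snoRNA and scaRNA genes and for other genes with 1 transcript. The numbers over the bars are genes above 0 and genes in the band: all 3 sets are at 0 below 100 bases, and from 100 to 149 bases 32 of 51 members are above 0.

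The order of the class totals was the reverse of their gene numbers. Only 12 of 99 Snord entries, 42 of 42 Snora and 7 of 9 Scarna were 100 bases or more and could hold a count. The 9 Scarna entries summed to 8007 expected counts in replicate 1 and 7625 in replicate 2, the 42 Snora entries to 2603 and 2617, and the 99 Snord entries to 565 and 510. As a share of all counts on annotated genes, Scarna held 0.0254% ± 0.000452 (SD, n = 2), Snora 0.00849% ± 0.000476 and Snord 0.00175% ± 0.000036. The 3 classes do not overlap in either library: in replicate 1 the exact 95% binomial intervals were 0.0245% to 0.0256% for Scarna, 0.00784% to 0.00847% for Snora and 0.00163% to 0.00192% for Snord. These intervals cover counting error only. The totals leave out the RNA of members under 100 bases, most of them Snord, and so do not rank the classes by RNA level. The gap between Scarna and Snora depended on the scale. In TPM, which divides by effective length, the sum was 1485 ± 23.2 for Scarna, 1334 ± 83.8 for Snora and 423 ± 25.1 for Snord. As CPM per kilobase of annotated length, where CPM scales counts to the library total, it was 715 ± 11.1 for Scarna, 431 ± 24.7 for Snora and 99.9 ± 3.43 for Snord. The median TPM over all members was 0 for Snord, 1.365 ± 0.0919 for Snora and 8.83 ± 2.93 for Scarna, beside 0 over all annotated genes. The Snord median was fixed at 0 by length, since 87 of 99 entries could hold no count. Over members of 100 bases or more the median was 3.01 ± 2.45 for Snord and 93.4 ± 8.99 for Scarna, and unchanged for Snora.

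A few genes made up each total. Scarna2 and Scarna10 together held 62.7% of all counts on members in replicate 1 and 61.9% in replicate 2, and the 5 leading members held 84.8% and 84.9%. Snord17 and Snord15b held 82.0% and 82.6% of the Snord counts. Snora74a, Snora73a and Snora73b held 95.02% and 94.7% of the Snora counts.

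Scarna2, which guides methylation of the spliceosomal U2 RNA and has no annotated host on its strand, had 4066 and 4007 expected counts in replicates 1 and 2, or 613 ± 25.6 TPM. Scarna10, known as U85 and a guide for both kinds of change in the U5 RNA, had 2942 and 2648 counts and 591 ± 13.3 TPM. It lies at chr6:125186359-125186683, partly in an exon of a transcript of Ncapd2, whose own level was 16.2 and 13.6 TPM. The 2 genes thus had similar levels in TPM, and both libraries put them above all other members. Scarna13, in an intron of the noncoding gene Snhg10, had 634 and 669 counts and 177 ± 16.0 TPM, while Snhg10 itself stood at 6.34 and 6.94 TPM. Scarna6, in an intron of the autophagy gene Atg16l1, had 359 and 291 counts and 93.4 ± 8.99 TPM. Below these the class dropped: Scarna3a had 6 and 9 counts, Scarna3b 0 and 1, and Scarna8 (131 bases) none. Scarna3a and Scarna3b are 85.7% identical, and both count sets are whole numbers.

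Among the H/ACA genes, Snora74a had 883 and 820 counts and 420 ± 0.198 TPM. It lies whole inside an exon of the noncoding transcript AC121821.1, so its sequence occurs in 2 annotated genes, and its counts are not whole numbers. Snora73a and Snora73b, the U17 RNAs, which act in cleavage of the ribosomal RNA precursor and not as guides, had 828 and 870 counts and 762 and 788 counts. In TPM they stood at 384 ± 33.5 and 350 ± 26.5. Their counts are not whole either, so neither value is certain on its own. Both lie in the region of Rcc1 and Snhg3, whose levels were 7.93 and 7.24 TPM for Rcc1 and 14.9 and 13.5 TPM for Snhg3.

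After these 3, the H/ACA counts dropped. Snora23, in an intron of Ipo7, had 20 and 16 counts (10.1 ± 1.06 TPM). Snora44, inside an exon of a Snhg12 transcript, had 11.5 and 14.8 counts (21.1 ± 4.76 TPM). Snora78 had 14 and 12 counts (21.4 ± 1.22 TPM), and Snora57 had 14 and 11 (12.2 ± 1.44 TPM). Snora17 had 8 and 12 counts (14.6 ± 4.86 TPM), and Snora26 had 6.23 and 7.49 (14.98 ± 2.73 TPM). At such counts the order of these members is not resolved.

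Among the C/D genes, Snord17 in an intron of Snx5 had 256 and 246 counts and 86.4 ± 2.07 TPM. Snord15b had 208 and 175 counts, fewer than Snord17, but 199 ± 13.7 TPM, with an effective length of 46 bases against 139. Per kilobase of annotated length the values were closer, 42.8 CPM for Snord15b and 34.3 CPM for Snord17. Snord15a, 65.6% identical to Snord15b and in an intron of the same host, had 45 and 50 counts and 46.5 ± 5.87 TPM. Snord15b, 1 of the 2 U15 genes, was thus higher than the other in both libraries under 1 host, Rps3, which stood at 148 and 142 TPM. Snord15b lies whole inside an exon of an annotated Rps3 transcript and Snord15a does not, and the part of reads from that transcript was not tested. Snord22, inside an exon of Snhg1, had 51.7 and 29.9 counts and 71.7 ± 23.5 TPM. Snord118, the U8 RNA needed to mature the RNA of the large ribosomal subunit, had 2 and 6 counts, and Snord23 had 3 and 1. Snord89 and Snord8, of 110 bases each, had 0 and 1.

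**Figure D3:**
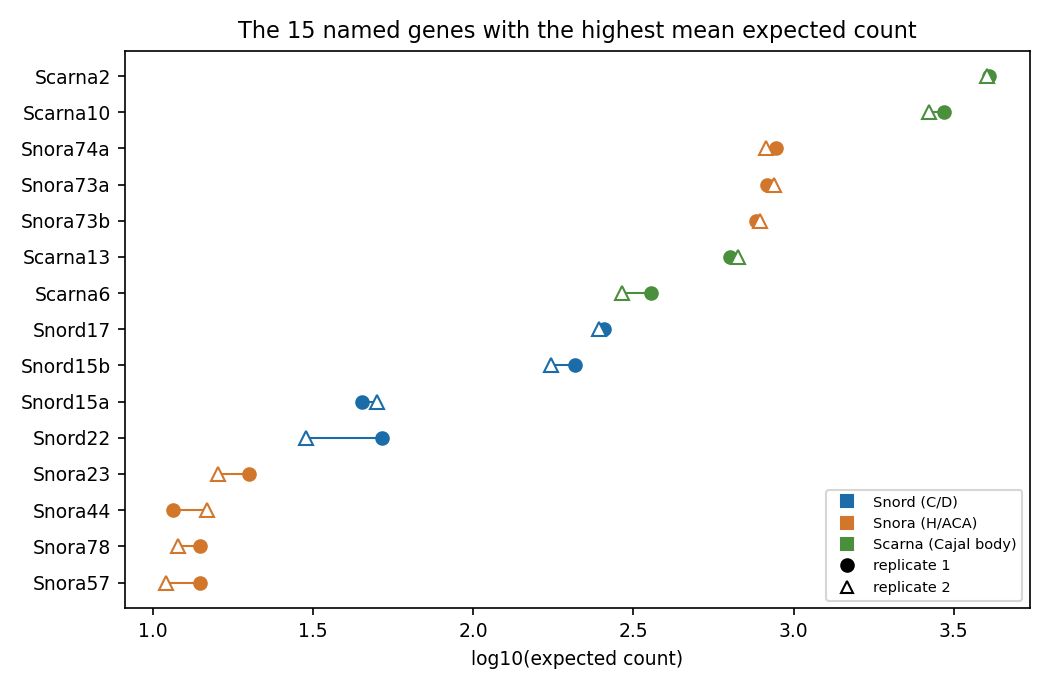
Expected count, as log10, of the 15 members with the highest mean, with a filled circle for replicate 1, an open triangle for replicate 2 and colours for the classes. Scarna2 and Scarna10 lead, 9 members lie above a mean of 100 counts, and no member below Snord15b exceeds 51.7.

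The 20 members of 100 bases or more without a count were 15 Snora, 4 Snord and 1 Scarna. Another annotated gene held a near copy of 10 of them, identical for 8, so reads from these could be assigned to the copy and their 0 sets no limit. For the other 10, among them Snora35, Snord13, Snord67 and Snord90, a 0 allows up to 3 counts of the library, or 0.094 CPM in replicate 1 and 0.101 CPM in replicate 2. That limit takes no account of effective length, which was 5 bases for Snord13 and 12 for Snord67 and Snord90. At an effective length of 10, the 3 counts of Snord23 in replicate 1 were 13.84 TPM. The limit on the RNA of the shortest members is thus loose. The longest of the 20 was Snora81 (178 bases), which lies whole inside an exon of Eif4a2 (314 and 319 TPM). Its 0 sets no limit, since Eif4a2 holds an identical copy. Snora35, known from brain and carried in an intron of the serotonin receptor gene Htr2c, was at 0 while Htr2c stood at 14.3 and 19.5 TPM. Snora75 lies whole inside an exon of the nucleolin gene Ncl (86.1 and 94.7 TPM) and Snora52 inside one of Rplp2 (291 and 299 TPM). Both were at 0, which sets no limit, since these hosts hold identical copies. Snord13, which has no annotated host and guides acetylation rather than methylation, is 104 bases long and was at 0. Snord67 and Snord90, at 111 bases, were the longest C/D members at 0.

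Host genes were measured whether or not the member was. Of the 150 members, 75 lay in an intron of a host on the same strand, 56 whole inside an exon of one of its transcripts, 10 partly in an exon, and 9 had no host. The host was protein-coding for 91. Among the 61 members of 100 bases or more, a count was seen for 16 of 26 in introns, 14 of 21 inside exons, 5 of 7 partly in exons and 6 of 7 without a host. Host TPM and member count had a Spearman rho of -0.25 over 54 members. Gas5 carried 4 entries of 66 to 81 bases, Snord47, Snord78 and 2 of Snord80, which were at 0 beside 92.6 and 91.4 TPM for Gas5. Snhg12 carried 5 entries: Snora44, Snora61 and 1 of 2 Snora16a entries had a count, the other Snora16a (137 bases) and Snord99 (74 bases) had none. Hspa8, at 1020 and 1036 TPM, carried 3 members of 86 to 90 bases, too short to hold a count, and all 3 were at 0.

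Another annotated gene held a near copy, at 90% identity or more over at least 90% of the member, for 89 of the 150 members, and an identical one for 73. Host exons are part of that number. Counts that were not whole numbers occurred in 20 members, of which 19 had a near copy, the exception being Scarna10. Values of these members depend on how the reads were divided. Scarna2, Scarna13, Scarna6, Snord17, Snord15a and Snora23 had whole counts and no near copy. An annotated exon on the opposite strand overlapped 5 members, and no label or header states whether the counting used strand.

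The imprinted cluster could not be measured through its snoRNAs. The tables hold 17 rows named Snord116l1 to Snord116l17 and 0 rows named Snord115. Each of the 17 had a near copy in 70 other annotated genes, so further copies are annotated under other names and are not described here. Each Snord116 row is 94 bases long and was at 0 in both libraries and by both routes. The 17 rows hold 4 distinct sequences, 14 rows share 1 sequence, and the lowest identity between any pair was 94.7%. They lie on the minus strand of chromosome 7 between 59861731 and 59904848, with starts 2509 to 5057 bases apart (median 2532), all in introns of Snhg14. Snhg14, the long imprinted host transcript, had 13582 and 11853 counts, or 519 and 498 TPM. Snord64 (67 bases) and Snord107 (70 bases), placed in Gm38393, were at 0 too, with Gm38393 at 33.8 and 29.6 TPM.

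The FASTQ-based route left out nearly all members. Of the 41 members with a count by alignment, 40 were at 0 in the FASTQ-based table: 8 of 8 Snord, 27 of 27 Snora and 5 of 6 Scarna. No member was above 0 by FASTQ alone. Scarna2 was the exception, with 857 and 833 estimated counts against 4066 and 4007, a ratio of 0.211 and 0.208. In TPM the gap was smaller, 453 and 478 against 595 and 632, since that table gives Scarna2 an effective length of 111 and 110 bases of its 414, against 315 in the gene table. Scarna10, at 325 bases, fell from 2942 and 2648 counts to 0 in both.

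That loss followed length in the whole table and not only among the members. Gene types were not split. The shortest transcript with a FASTQ-based count was 291 bases in replicate 1 and 294 in replicate 2. The 10263 transcripts shorter than 291 bases were thus at 0 by definition. In that table the effective length of transcripts over 2000 bases was shorter than the length by a median of 352 bases in replicate 1 and 356 in replicate 2. Rn7sk, an abundant noncoding RNA of 331 bases, went from 289787 and 302625 counts to 0. For single-transcript genes with a mean of at least 100 counts, the median ratio of FASTQ to alignment counts was 0 for 64 genes of 100 to 290 bases. It was 0.0816 and 0.00271 for 29 genes of 400 to 449 bases, the band of Scarna2, and 0.957 and 0.956 for 330 genes of 1000 to 1999 bases.

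**Figure D4:**
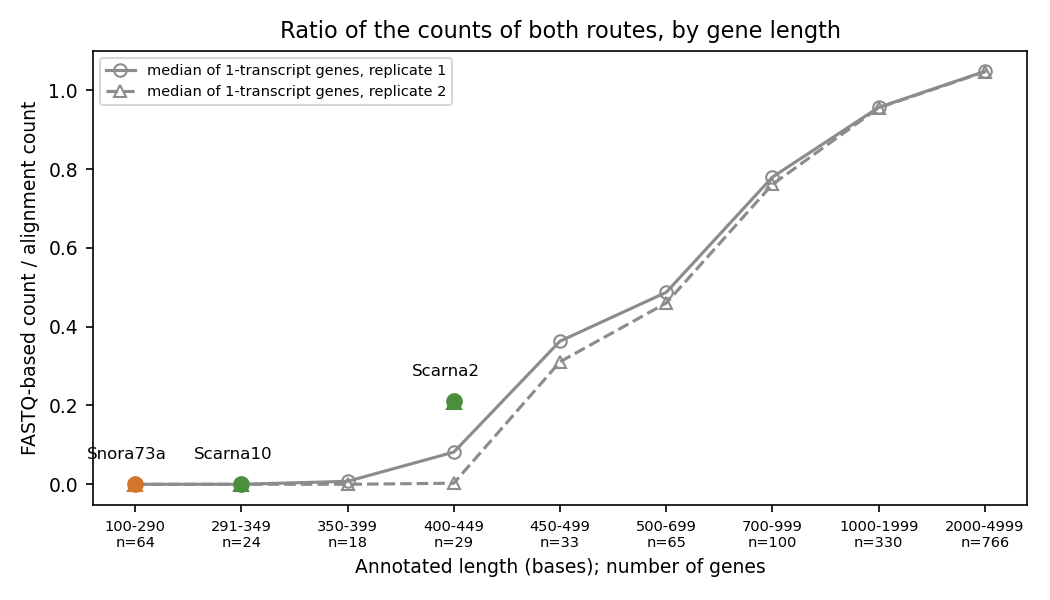
Median ratio of the FASTQ-based count to the alignment count of single-transcript genes with a mean of at least 100 counts, by annotated length in bases (grey, circles for replicate 1 and triangles for replicate 2), with Scarna2, Scarna10 and Snora73a in colour. The medians rise from 0 below 350 bases to 1.05 at 2000 to 4999, and Scarna2 lies at 0.211 and 0.208.

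Between the 2 libraries no member with a mean of at least 100 counts differed by 2-fold. With a mean of at least 100 counts, 9 members entered a two-sided exact binomial test of replicate 2 against replicate 1, run over 12879 genes with Benjamini-Hochberg adjustment. It compares these libraries and not conditions. None of the 9 passed an adjusted p of 0.05 with a 2-fold difference, beside 39 of all genes tested (0.303%). At an adjusted p under 0.05 alone, 1 of the 9 passed, beside 11.8% of all genes, and 4 had an unadjusted p under 0.05: Scarna2, Scarna13, Snora73a and Snora73b. Scarna2 was higher in replicate 2 by 0.09 on the log2 scale (ratio 1.066, 95% interval 1.02 to 1.114, adjusted p = 0.0382 in the exact binomial test). Under DESeq2 size factors, under total counts and without a filter on low counts, that call was lost. The log2 differences were 0.19 for Scarna13, 0.18 for Snora73a, 0.16 for Snora73b, 0.06 for Snord17, 0.01 for Snora74a, -0.04 for Scarna10, -0.14 for Snord15b and -0.19 for Scarna6. The median absolute difference was 0.135 over the 9 members and 0.070 over all genes tested.

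The genes for the listed protein partners of these RNAs were all measured, as mRNA and not as protein. The 4 C/D core proteins were each above 1 TPM in both libraries: the methyltransferase Fbl at 32.5 ± 3.03 TPM, the scaffold proteins Nop56 at 77.5 ± 0.955 and Nop58 at 38.6 ± 3.37, and Snu13, which binds the box motif, at 50.2 ± 2.57. The 4 H/ACA core proteins were above 1 TPM as well: the pseudouridine synthase Dkc1 at 14.2 ± 0.410 TPM, Nop10 at 35.1 ± 1.49, Nhp2 at 26.985 ± 0.120 and Gar1 at 24.0 ± 3.20. All 10 assembly factors, 4 of 4 Cajal body genes, among them Coil at 8.90 ± 0.113 and the scaRNA-binding Wrap53 at 4.29 ± 0.651, and 5 of 5 proteins of the U3 particle were also above 1 TPM. None of these genes differed between the libraries at an adjusted p of 0.05. Of 23 genes on the list of noncoding hosts, which holds Snhg11 although it is annotated as protein-coding, 20 were found and 15 could be tested. In replicate 2, 4 were lower at an adjusted p under 0.05, Snhg11, Snhg14, Meg3 and Rian, by 0.07 to 0.12 on the log2 scale, and none reached 2-fold. Among them, only Snhg14 was an annotated host of named members. Those 4 of 15 stand beside 11.8% of all genes tested, in either direction. Of the other small RNA genes, 11 of 11 listed names were found in 12 rows, from 127773 TPM for each 7SL row to 0 for Rny3 (102 bases). Those 12 rows summed to 334078 TPM in replicate 1 and 333026 in replicate 2. All annotated genes summed to 993094 and 993074, so these rows take a large part of the TPM scale used for every gene.

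Values of the whole tables that touch these results were few. The libraries held 32035705 and 29747193 expected counts, of which spike-in controls were 0.358% and 0.359%. The hippocampal excitatory markers listed were at or above 1 TPM in both, 8 of 8. The 5 choroid plexus markers summed to 12.7 TPM in replicate 1 and 354 in replicate 2 (Ttr at 8.02 and 340), the 4 oligodendrocyte markers summed to 154 and 278 TPM, and the 3 red blood cell genes to 668 and 383. Their part in the small differences between the libraries was not tested, and in bulk tissue fewer cells and less RNA per cell cannot be told apart. The library labelled male, replicate 2, had 30841 counts of Xist against 25 in replicate 1, and 0 of Ddx3y against 2164, which goes against its label. The only member with a count on a sex chromosome was Snora70, on the X, with 1.17 and 0.31.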

How the data were processed

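Expected counts and TPM per gene and transcript were deposited by the authors, derived from transcriptome alignments to mm10 with GENCODE M21, per the deposited descriptions. The authors also deposited a transcript table quantified directly from the FASTQ files, with estimated counts and TPM. The quantification tools are not named in the labels or headers. Expected counts were rounded to whole numbers for the test only. The 2 biological replicates were compared over genes with a mean of at least 100 counts by two-sided exact binomial tests on TMM-scaled totals (edgeR 4.0.16, scipy 1.17.1) with Benjamini-Hochberg adjustment. A call needed an adjusted p under 0.05 and a 2-fold difference, and log2 ratios used a prior count of 0.5. Checked on simulated data for this comparison, with 200 of 12882 genes changed, the test recovered 100% of genes changed 3-fold or more and called 0 of 12682 unchanged genes. The changed genes were drawn from those with a mean of at least 200 counts. The simulated counts held counting error only, as the test assumes, so the check does not give the error rate in the real libraries. DESeq2 1.42.0 gave the alternative size factors. Near copies were searched with BLAST 2.17.0, and a count was called whole within 0.005. The binomial test includes no spread between animals. Members, lists and naming rules (8 leading genes per class by TPM and by counts, all Snord116 entries, extremes of length and hosts) were chosen with earlier results of these data known. 1 named H/ACA member and its host are not reported here.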

Additional observations from a re-analysis of the deposited data

How the results depend on the processing

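Members with a mean below 100 counts did not enter the main test, and 1 group of 2 libraries gives no comparison between conditions. Alternatives restricted to members without a near copy, to members of 100 bases or more, and to genes off chromosomes X and Y were chosen after seeing the data. By FASTQ-based counts, 1 member was detected in both libraries (Snord 0, Snora 0, Scarna 1) in place of 29, the share of counts was 0.00273% for Scarna and for all members and 0 for Snord and Snora, and the median TPM was 0 in Snora and in Scarna. Requiring a count of at least 10 left 15 members, 7 of them Snora. Without members that have a near copy, 14 were detected, 3 of them Snord and 6 Snora. Over nuclear protein-coding counts the shares were 0.00217% (Snord), 0.0105% (Snora), 0.0315% (Scarna) and 0.0442% (all). As shares of total TPM they were 0.0426%, 0.134%, 0.150% and 0.326%. Median TPM over members with a count of at least 1 in both libraries was 58.3 for Snord, 12.5 for Snora, 177 for Scarna and 15.9 for all. Over members of 100 bases or more it was 3.01 for Snord, 93.4 for Scarna and 1.92 for all. As CPM per kilobase of length the medians were 0.2425 for Snora and 1.76 for Scarna. With a mean count of at least 10, 17 members were above the threshold by alignment and at 0 by FASTQ, in place of 40. The number of members with an adjusted p under 0.05 between the libraries went from 1 to 0 with DESeq2 size factors, with total counts and with no filter on low counts, and 0 members were called with a 2-fold difference under any of the 5 alternatives. Snora74a changed sign, from 0.01 to -0.0005 on the log2 scale with DESeq2 size factors and -0.0010 in TPM as deposited. The cause was not tested.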

Other observations

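Annotated snoRNA and scaRNA genes outside the naming rule, 1409 in number, held 8642 and 8138 expected counts in replicates 1 and 2, less than the 150 named members (11176 and 10751). In TPM the order was the reverse, with 4804 and 5008 for these genes and 3184 and 3300 for the named members. Only 126 of them were above 0. The 3 leading rows had placeholder names: Gm22009 (343 bases) with 1835 and 1755 counts, Gm22988 (144 bases) with 681 and 785, and Gm25395 (272 bases) with 532 and 528. By mean count 4 rows of Rnu3b came next, and then Gm26447 (129 bases) with 379 and 377. Gm22009 was the only gene of this set above 0 in the FASTQ-based table, with 0 and 1 estimated counts.

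U3, the most abundant C/D RNA of the nucleolus and one that acts in processing of the ribosomal RNA precursor, is annotated as Rnu3a and Rnu3b and so is not among the named members. The 8 Rnu3b rows fell into a pair of sets with equal values inside each set. Each of the 4 rows of 215 bases had 619 counts in replicate 1 and 325 in replicate 2, while each of the 4 rows of 216 bases had 128 and 334. The sum over all 8 rows was 2986 and 2635. A row of Rnu3b read alone would thus give opposite directions between the libraries, depending on which row was read. The Rnu3a row of 213 bases had 198 and 152 counts.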
